A study of Danio rerio with 52 samples.

Results

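The genes described here are the ribosome biogenesis genes of the zebrafish (Danio rerio), found by symbol among the genes measured in cells sorted from the skin and lateral line of larvae. They were taken by name stems such as nop, rrp, utp, nol and polr1 with a number or letter, together with fbl, dkc1, gar1, nhp2, imp4, wdr12, wdr43, wdr75, bop1, pes, nip7 and the gnl3 genes. This gave 52 of the 19260 genes tested, each represented by 1 probe set, the one with the highest mean over all arrays. The genes nhp2, nop56 and wdr75 had 2 probe sets each. Probe sets listed with several symbols were not named, so gnl2, ebna1bp2, imp3 and nop14 were not analysed here.

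Ribosomes are built in the nucleolus. RNA polymerase I makes a long precursor of the ribosomal RNAs, small nucleolar ribonucleoproteins guide the chemical modification of that precursor, and the small subunit processome and the large subunit assembly factors cut, fold and load it with ribosomal proteins until 40S and 60S particles leave the nucleus. Dividing and growing cells spend much of their energy on this pathway. In the zebrafish several of these factors are known from mutants with small digestive organs or small eyes.

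The arrays measured 4 kinds of sorted cells from larvae 4 days after fertilization, of which 17 arrays were of untreated larvae. Larvae of the line alpl:mCherry;pou4f3:GFP carry mCherry in mantle cells, the outer ring of support cells of a lateral line organ (neuromast), and GFP in hair cells, its sensory cells. The line alpl:mCherry;Et20 carries mCherry in all mantle cells and GFP in most of them. The rest of the arrays followed 2 of the sorted populations after larvae had been exposed to 5 µM copper sulfate for 1 h, a treatment that kills hair cells and starts their regeneration.

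Untreated groups were non-fluorescent cells (6 arrays), which are the other cells of the dissociated skin and whose line the labels do not give, mCherry+ mantle cells (5 arrays), mCherry+/GFP+ mantle cells of alpl:mCherry;Et20 (4 arrays) and GFP+ hair cells (2 arrays). After copper there were 7 arrays of non-fluorescent cells at 1 h and 4 each at 3, 5 and 11 h, and 4 arrays of mCherry+ mantle cells at each of these times. Each sample came from about 50 skins, and 1 ng of RNA was amplified. Hair cells and mCherry+/GFP+ mantle cells were pooled over several sorts, and the authors dropped a few samples that did not group with the others in a principal component plot, so the spread between arrays may be smaller than that between larvae. Whether replicates are separate clutches is not given in the labels, and p-values measure the spread between these arrays. Levels below are log2 values relative to the median of the 19260 tested genes in the same array, and a gene was called changed at an adjusted p under 0.05 in limma's test across all of these genes.

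The sorted populations carried most of the markers of their labels. Of 16 hair cell markers, 15 were higher in hair cells than in non-fluorescent cells. Of 12 markers of neuromast support and mantle cells 8 were higher in mCherry+ and 9 in mCherry+/GFP+ mantle cells. Levels of alpl were 1.62 to 2.39 in mCherry+ and 1.14 to 1.66 in non-fluorescent cells, so these overlapped. Of all tested genes 24.2%, 17.8% and 17.8% were higher in mCherry+ mantle, mCherry+/GFP+ mantle and hair cells, and 12.7%, 13.6% and 18% lower. Markers of other cell types also differed between the groups. Of 25 keratinocyte markers, 18 were lower in mCherry+ mantle cells than in non-fluorescent cells, 14 in mCherry+/GFP+ mantle cells and 16 in hair cells. The mean level of these 25 genes was 2.99 to 3.98 in the non-fluorescent arrays, 0.91 to 1.85 in the mCherry+, 2.01 to 2.56 in the mCherry+/GFP+ and 2.04 to 2.05 in the hair cell arrays. All 20 muscle markers were lower in mCherry+ mantle cells, with mean levels of -0.74 to -0.12 against 0.39 to 1.70 in non-fluorescent cells. Connective tissue markers had mean levels of 4.62 to 4.87 in mCherry+ mantle cells, 3.64 to 4.00 in non-fluorescent cells, 1.97 to 3.08 in mCherry+/GFP+ mantle cells and -0.18 to -0.16 in hair cells. Of 16 pigment cell markers 10 were higher in hair cells, with mean levels of 1.44 to 1.5 against -0.88 to -0.46 in non-fluorescent cells, and every array of the other groups was below 0. The part of this cell type mix in the differences below was not tested. In such bulk samples, fewer cells of a type and less RNA per cell cannot be told apart.

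The ribosome biogenesis genes were highest in non-fluorescent cells and lower in all 3 sorted neuromast populations. The mean level of the 52 genes was 1.78 ± 0.12 (SD, n = 6) in untreated non-fluorescent cells, with a lowest array of 1.64 and a highest of 1.95. It was 1.14 ± 0.08 (SD, n = 5) in mCherry+ mantle cells, 1.29 ± 0.11 (SD, n = 4) in mCherry+/GFP+ mantle cells and 0.98 ± 0.06 (SD, n = 2) in hair cells. The highest array of any neuromast population had a mean of 1.41, so none reached the lowest non-fluorescent array.

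**Figure D1:**
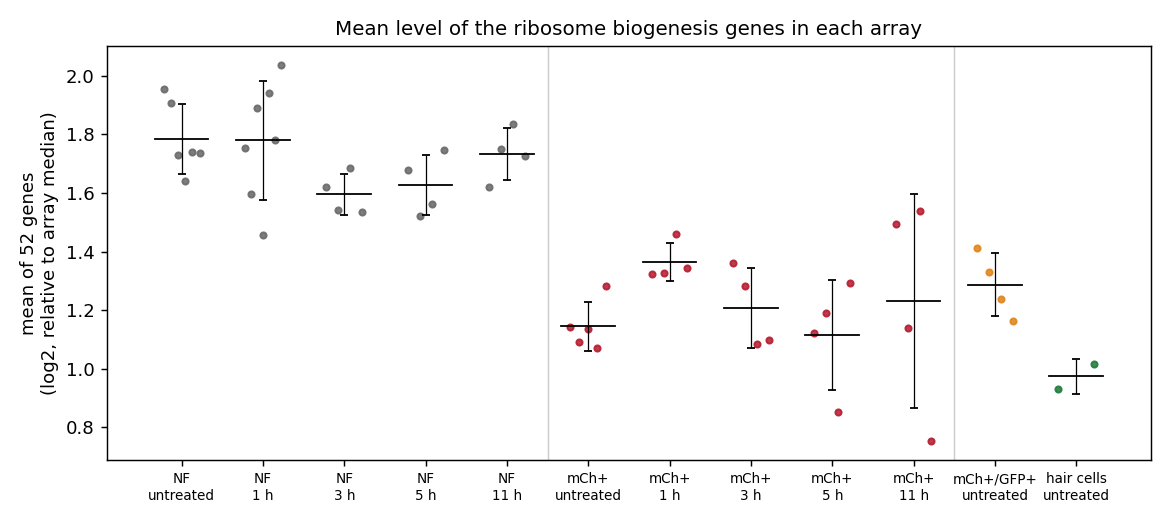
Mean log2 level of the 52 ribosome biogenesis genes, relative to the array median (vertical axis), in each array of the 12 groups (horizontal axis). Points are arrays, horizontal bars group means and whiskers 1 SD. The untreated non-fluorescent arrays lie between 1.64 and 1.95, and the untreated mantle and hair cell arrays lie at 1.41 or below.

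In mCherry+ mantle cells, 35 of the 52 genes were lower than in non-fluorescent cells and none was higher, where 12.7% of all tested genes were called lower and 24.2% higher. The median difference of the 52 genes was -0.65, against 0.17 over all tested genes. Arrays are centred on their medians here. On the deposited values the median of all tested genes was 0.01, the split of all calls turned from 65.6% higher to 46.8% higher, and 41 of the 52 genes were lower, where 17.2% of all genes were. The 35 genes were lower under all 3 scalings tried (array medians, deposited values and quantile normalization), and for 23 of the 52 all mCherry+ arrays lay below all non-fluorescent arrays, as for 8.04% of all tested genes.

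In mCherry+/GFP+ mantle cells 22 of the 52 genes were lower and none higher, with 13.6% of all tested genes lower, and the median difference was -0.48 against 0.06 over all genes. On deposited values the split of all calls moved from 56.7% to 44.6% higher, and 29 of the 52 were lower, where 17.4% of all genes were. In hair cells 32 genes were lower and 1, nol4lb, was higher, with 35.7% of all tested genes called, 18% lower and 17.8% higher, and the median difference was -0.79 against 0.04. The hair cell count rests on 2 arrays, which the fit assumes to vary like the other groups. Without hair cell replicate 1 it was 16 in place of 33. The comparisons share the 6 non-fluorescent arrays, so they are not independent of each other.

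**Figure D2:**
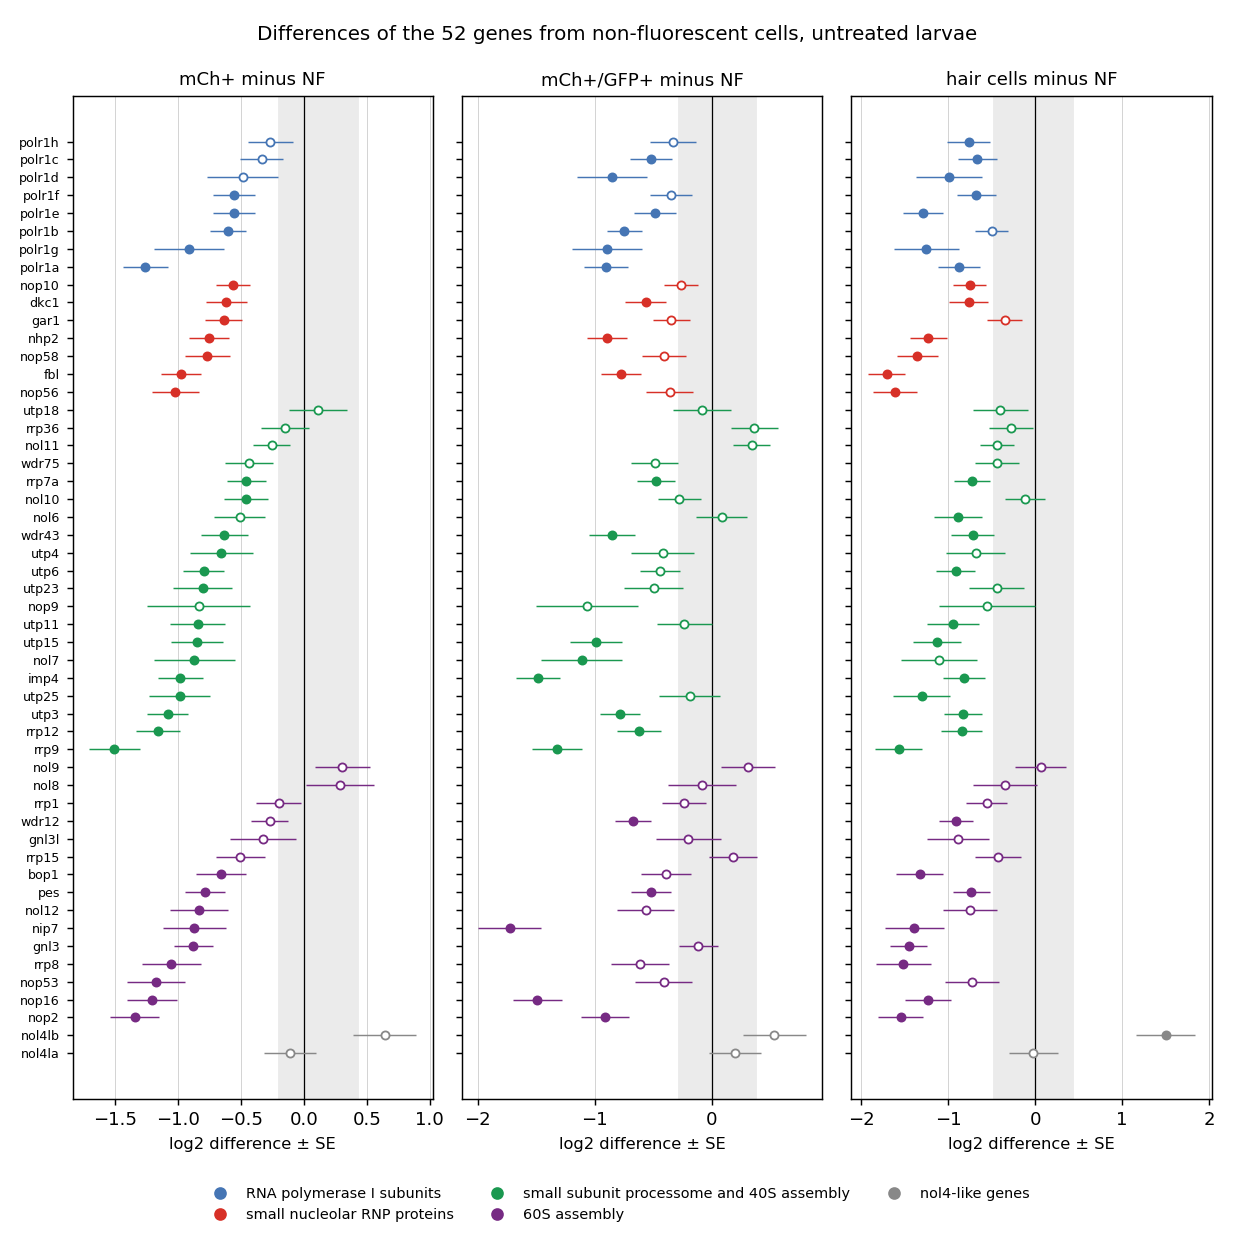
Log2 difference from untreated non-fluorescent cells (horizontal axes) of each of the 52 genes (vertical axis, grouped by role), in mCherry+ mantle cells, mCherry+/GFP+ mantle cells and hair cells. Points are fitted differences with 1 SE, filled where the adjusted p was under 0.05, and the grey band holds the middle 50% of all tested genes. Filled points lie left of 0 in all 3 panels, except nol4lb at 1.5 in hair cells.

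RNA polymerase I has subunits of its own, subunits shared with RNA polymerase III, and others common to RNA polymerases I, II and III. Of the 8 measured subunit genes named polr1, 5 were lower in mCherry+ mantle cells, 6 in mCherry+/GFP+ mantle cells and 7 in hair cells. The shares of all tested genes called lower were 12.7%, 13.6% and 18%. The largest subunit, polr1a, which holds much of the catalytic centre, had levels of 1.54 to 2.47 (median 2.02) in non-fluorescent cells. Its levels were 0.73, 0.80, 0.59, 0.58 and 1.09 in the mCherry+ arrays, 1.38, 1.25, 0.69 and 1.13 in the mCherry+/GFP+ arrays, and 1.02 and 1.25 in hair cells. All 11 neuromast arrays were below all 6 non-fluorescent arrays. The difference was -1.26 (SE 0.18, adjusted p = 1.91e-05, limma) in mCherry+ cells, -0.90 (SE 0.19, adjusted p = 0.00123, limma) in mCherry+/GFP+ cells and -0.88 (SE 0.24, adjusted p = 0.00738, limma) in hair cells.

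The second-largest subunit, polr1b, was lower in both mantle populations (-0.60 and -0.75) and at -0.50 with an adjusted p of 0.0518 (limma) in hair cells. Subunits peculiar to polymerase I, polr1e, polr1f and polr1g, were lower in mCherry+ mantle cells by values from -0.55 to -0.91 and in hair cells by values from -0.68 to -1.29. In mCherry+/GFP+ cells polr1e and polr1g were lower, and polr1f was at -0.35 and not called. The shared subunits polr1c and polr1d were not called in mCherry+ mantle cells (-0.34 and -0.48). Both were lower in hair cells and mCherry+/GFP+ cells, but polr1c did not pass under all 3 scalings. The small subunit polr1h was at -0.26 in mCherry+ and -0.33 in mCherry+/GFP+ mantle cells without passing the test, and lower in hair cells (-0.77).

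Small nucleolar ribonucleoproteins come in the box C/D class, which methylates ribose, and the box H/ACA class, which makes pseudouridine. All 7 protein genes of these particles were lower in mCherry+ mantle cells, 3 in mCherry+/GFP+ mantle cells and 6 in hair cells. Among all tested genes 12.7%, 13.6% and 18% were. The methyltransferase of the box C/D particle, fbl (fibrillarin), had levels of 3.85 to 4.25 (median 4.07) in non-fluorescent cells. It had levels of 3.17, 2.92, 3.20, 3.01 and 3.20 in mCherry+ mantle cells, 3.01, 3.52, 3.83 and 2.83 in mCherry+/GFP+ cells, and 2.47 and 2.27 in hair cells. The non-fluorescent arrays lay above all others, and the hair cell arrays lay below all mantle arrays.

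The difference of fbl from non-fluorescent cells was -0.98 (SE 0.16, adjusted p = 9.95e-05, limma) in mCherry+ mantle cells and -1.71 (SE 0.22, adjusted p = 4.20e-06, limma) in hair cells. In mCherry+/GFP+ cells it was -0.78 (SE 0.17, adjusted p = 0.0018, limma). Between hair cells and mCherry+ mantle cells fbl differed by -0.73 (SE 0.22, adjusted p = 0.0141, limma). Of the 52 genes, 4 were lower in hair cells than in mCherry+ mantle cells, namely fbl, polr1e, gnl3 and wdr12, and none was higher, where 36.1% of all tested genes were called and 19.7% were lower. A block term for sets of arrays that appear to have been adjusted together left 0 of these 4 called, where 28.2% of all tested genes were still called. The sets were inferred from the values and not from labels. Of the mCherry+ arrays only replicate 5 shares the set of the hair cells, so direct comparison there rests on few arrays. The gene gnl3 did not pass under all 3 scalings, and its difference of -0.58 was -0.31 without hair cell replicate 1. Without hair cell replicate 2 the count was 1.

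The core box C/D proteins nop56 and nop58 were lower in mCherry+ mantle cells (-1.02 and -0.77) and in hair cells (-1.61 and -1.35). In mCherry+/GFP+ mantle cells nop56 had levels of 3.88, 3.44, 4.02 and 3.99, of which 1 lay below the range of the non-fluorescent arrays (3.68 to 4.84), while mCherry+ mantle cells had 3.21, 3.20, 3.16, 2.90 and 3.41. The difference of nop56 between the mantle populations, mCherry+/GFP+ minus mCherry+, was 0.66 (SE 0.21, adjusted p = 0.0255, limma). Of the H/ACA proteins, the pseudouridine synthase dkc1 (dyskerin) and nhp2 were lower in all 3 populations. The small protein nop10 was lower in mCherry+ mantle cells and hair cells, and gar1 in mCherry+ mantle cells, with -0.35 in both others.

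The small subunit processome is the particle around U3 RNA that starts the maturation of 18S ribosomal RNA. Its measured genes and those of later 40S assembly numbered 20. Of these, 14 were lower in mCherry+ mantle cells, 8 in mCherry+/GFP+ mantle cells and 11 in hair cells. Among all tested genes 12.7%, 13.6% and 18% were lower. The gene with the largest decrease of all 52 in mCherry+ mantle cells was rrp9, which encodes a protein of the U3 particle itself. Its levels were 1.36 to 2.10 (median 1.60) in non-fluorescent cells. They were -0.33, 0.25, 0.62, -0.22 and 0.45 in mCherry+ mantle cells, 0.45, 0.71, -0.21 and 0.38 in mCherry+/GFP+ cells, and -0.11 and 0.29 in hair cells. All neuromast arrays lay below the non-fluorescent arrays, and the neuromast populations overlapped each other.

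The differences of rrp9 were -1.50 (SE 0.20, adjusted p = 1.05e-05, limma), -1.32 (SE 0.21, adjusted p = 0.00011, limma) and -1.57 (SE 0.27, adjusted p = 0.000155, limma) in the same order. The U3-binding protein imp4 differed most in mCherry+/GFP+ mantle cells. Its levels there were 0.46, 0.33, -0.13 and 0.54, against 0.91, 0.45, 1.04, 0.42 and 1.22 in mCherry+ mantle cells, 0.94 and 1.00 in hair cells and 1.45 to 2.18 (median 1.71) in non-fluorescent cells. Both mantle populations and the hair cells lay below the non-fluorescent arrays. The differences of imp4 were -0.98, -1.48 and -0.82, all called.

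Lower in all 3 populations were also utp3, utp15, wdr43 and rrp7a of the processome, and rrp12, a factor of late 40S assembly and export. The processome genes utp6, utp11 and utp25 were lower in mCherry+ mantle cells and hair cells, and utp25 is the zebrafish gene known from a mutant with small digestive organs. The gene nol7 was lower in both mantle populations, and utp4, utp23 and nol10 in mCherry+ mantle cells alone among the 3 comparisons, which was not tested as a difference between them. In hair cells nol6 was lower (-0.88). Not called in any of the 3 populations were wdr75, nol11, nop9, rrp36 and utp18, whose differences in mCherry+ mantle cells were -0.43, -0.26, -0.83, -0.15 and 0.11. Without untreated non-fluorescent replicate 2 that of nop9 was -0.38. The call of nol7 in mCherry+ cells held without the same array, at -0.53 in place of -0.87, and that of utp11 in hair cells was lost without hair cell replicate 1, at -0.56 in place of -0.94.

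Of the 15 genes of 60S assembly, 9 were lower in mCherry+ mantle cells, 5 in mCherry+/GFP+ mantle cells and 8 in hair cells. The shares over all tested genes were 12.7%, 13.6% and 18%. The methyltransferase nop2, which modifies the large ribosomal RNA, had levels of 2.14 to 2.71 (median 2.34) in non-fluorescent cells. They were 1.1, 0.84, 1.22, 0.86 and 1.09 in mCherry+ mantle cells, 0.81, 2.06, 1.75 and 1.19 in mCherry+/GFP+ cells, and 0.57 and 1.07 in hair cells. No neuromast array reached the lowest non-fluorescent array, and the mCherry+/GFP+ arrays were the most spread. The differences were -1.34 (SE 0.19, adjusted p = 2.29e-05, limma), -0.91 (SE 0.20, adjusted p = 0.00215, limma) and -1.55 (SE 0.26, adjusted p = 0.000108, limma).

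The 60S factors nop16 and nip7 were lowest in mCherry+/GFP+ mantle cells, where nip7 had levels of 0.68, -0.71, -0.47 and -0.16. It had levels of 0.93, 1.13, 0.38, 0.89 and 0.15 in mCherry+ mantle cells, -0.10 and 0.45 in hair cells, and 1.22 to 2.26 (median 1.52) in non-fluorescent cells. The non-fluorescent arrays lay above all others, and mCherry+ and mCherry+/GFP+ cells overlapped. The differences of nip7 were -0.87, -1.73 and -1.39, and those of nop16 were -1.20, -1.49 and -1.23, all called.

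The complex of pes (pescadillo), bop1 and wdr12 is needed for processing of the 28S precursor. Its gene pes was lower in all 3 populations (-0.79, -0.52 and -0.73). The gene bop1 was lower in mCherry+ mantle cells and hair cells (-0.66 and -1.33), and wdr12 in mCherry+/GFP+ cells and hair cells (-0.68 and -0.91). The nucleolar GTPase gnl3 (nucleostemin) had levels of 2.38 to 2.62 in non-fluorescent cells and 2.11, 2.83, 2.50 and 2.07 in mCherry+/GFP+ mantle cells, so these groups overlapped. It had levels of 1.65, 1.30, 1.72, 1.54 and 1.88 in mCherry+ mantle cells and 0.77 and 1.31 in hair cells, all below the other 2 groups. The differences of gnl3 were -0.88, -0.12 and -1.45, of which the second was not called.

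Of the other 60S genes, nop53 and nol12 were lower in mCherry+ mantle cells (-1.17 and -0.83), and rrp8, a methyltransferase of the large ribosomal RNA in yeast, in mCherry+ mantle cells and hair cells (-1.05 and -1.52). The genes gnl3l, rrp1, rrp15, nol8 and nol9 were not called in any of the 3 populations. In hair cells gnl3l was at -0.89 and rrp1 at -0.56, while nol9, a polynucleotide kinase, was at 0.31, 0.31 and 0.07 in the 3 comparisons. The nol4-like genes nol4la and nol4lb match the symbol rule but are not known ribosome factors. The gene nol4lb had levels of -0.03 to 1.26 (median 0.51) in non-fluorescent cells and 1.98 and 2.04 in hair cells, above all 6. Its difference in hair cells was 1.5 (SE 0.34, adjusted p = 0.00186, limma), and nol4la did not differ by more than 0.20 in any of the 3 populations.

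**Figure D3:**
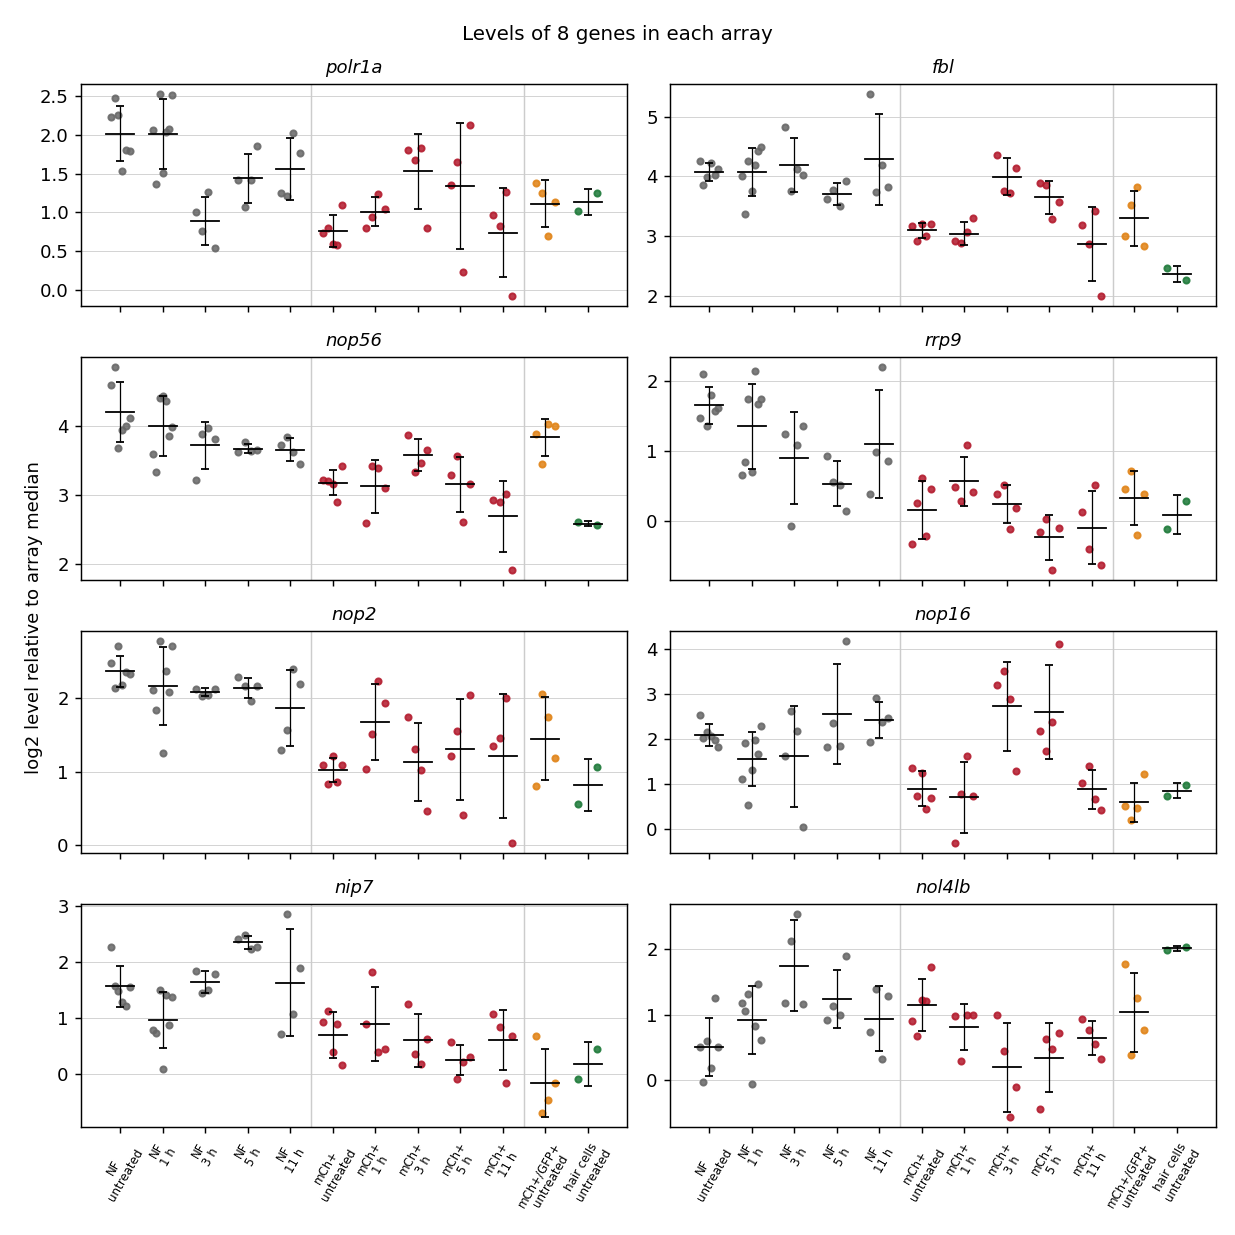
Log2 level relative to the array median (vertical axes) of 8 of the genes in each array of the 12 groups (horizontal axis). Points are arrays, horizontal bars group means and whiskers 1 SD. For polr1a, fbl, rrp9, nop2, nop16 and nip7 the untreated mantle and hair cell arrays lie below the untreated non-fluorescent arrays, and nol4lb is highest in the untreated hair cells among untreated arrays.

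Between the mantle populations, no larger a share of the 52 genes was called than of all tested genes. In mCherry+/GFP+ cells, gnl3, nop53, rrp15, nop56, nol11 and utp25 were higher than in mCherry+ cells and nip7 was lower. So 6 of 52 (11.5%) were higher, where 11.5% of all tested genes were, and 1 (1.92%) was lower, where 14.7% were. The largest differences were 0.79 for utp25, 0.76 for nop53 and 0.76 for gnl3. With a block for sets of arrays that appear to have been adjusted together, 0 of these 7 were called, where 13.7% of all tested genes still were. Of the mCherry+ arrays only replicate 5 shares the set of the mCherry+/GFP+ arrays in that block. In the fit without the block, leaving out mCherry+ replicate 1 or replicate 4 gave a count of 4. These mantle populations also differ in transgenic line and in pooling, which cannot be told apart from the population.

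In each of 3 sets of untreated arrays, most of the 52 genes were lower in mCherry+ mantle cells than in non-fluorescent cells. The labels do not give these sets. The first and the second were inferred from the values as arrays that may have been adjusted together. The mark of this was not exact, unlike that of the 3 h and 5 h arrays described below. The third held the remaining arrays of these groups. In these sets 49, 50 and 39 of the 52 genes had a lower mean in mCherry+ cells, with median differences of -0.64, -0.84 and -0.54. Over the full groups 48 of the 52 genes and 36.2% of all tested genes had a lower mean in mCherry+ cells. The share of all tested genes within each set was not counted. These sets divide the same arrays that gave the 35 lower genes, so they add no separate evidence. The 23 genes whose groups did not overlap are lower in any such division. The second set held 1 non-fluorescent array and the third 1 mCherry+ array.

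Other genes of the pathway, outside the symbol rule, were counted in the same way. Of all tested genes 12.7%, 13.6% and 18% were lower in mCherry+ mantle, mCherry+/GFP+ mantle and hair cells, and 24.2%, 17.8% and 17.8% higher. Of 112 other measured ribosome biogenesis factors, 55 were lower and 0 higher in mCherry+ mantle cells (median -0.49), 32 lower and 2 higher in mCherry+/GFP+ cells (median -0.33), and 55 lower and 2 higher in hair cells (median -0.69). Among them npm1a (nucleophosmin) was lower in all 3 (-0.83, -0.78 and -1.28). Nucleolin, ncl, was lower in mCherry+ mantle cells (-0.49) and hair cells (-0.85) and was at 0.08 in mCherry+/GFP+ cells. The polymerase I initiation factor rrn3 was lower in mCherry+ mantle cells (-0.69), while ubtf, which binds ribosomal DNA, was at -0.19, -0.21 and 0.03.

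Genes of the ribosome itself, the other RNA polymerases and the cell cycle were counted too. Of all tested genes 12.7%, 13.6% and 18% were lower in the same 3 populations. Of 42 cytosolic ribosomal protein genes 1 was lower and 1 higher in mCherry+ mantle cells (median 0.11), 3 were lower and 1 higher in mCherry+/GFP+ cells (median -0.01), and 31 were lower in hair cells (median -0.55). Of 13 RNA polymerase II subunits 3, 5 and 1 were lower in the 3 populations, and of 10 RNA polymerase III subunits 1, 3 and 1. The polymerase II list includes polr2h and polr2l, which polymerase I shares. Of 37 cell cycle and DNA replication genes 7 were lower in mCherry+ mantle cells, 3 in mCherry+/GFP+ cells and 30 in hair cells, where the median was -1.44. Myc transcription factors are known to drive ribosome biogenesis genes. The mean level of 11 Myc family genes and partners was 1.99 in non-fluorescent, 2.27 in mCherry+, 2.19 in mCherry+/GFP+ and 1.94 in hair cells. These list means were not tested. Among the 11, mycb was at 0.88 in mCherry+ mantle cells (called, though not under quantile normalization) and lower in hair cells (-1.45). The mean level of myca was 0.7 in mCherry+/GFP+ and 1.9 in non-fluorescent cells, and that of mych was 3.1 and 2.2. The mean level of mycn was 1.07 in non-fluorescent, 0.39 in mCherry+, 1.12 in mCherry+/GFP+ and 0.54 in hair cells.

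**Figure D4:**
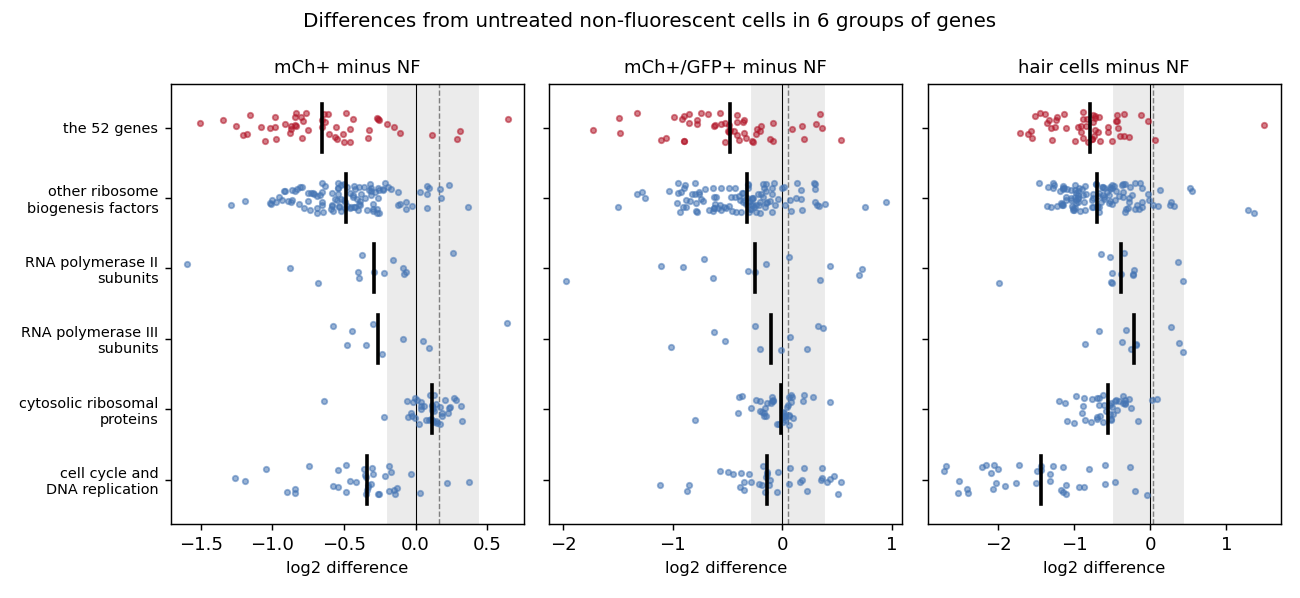
Log2 difference from untreated non-fluorescent cells (horizontal axes) of the genes of 6 lists (vertical axis) in mCherry+ mantle cells, mCherry+/GFP+ mantle cells and hair cells. Points are genes, thick bars list medians, the dashed line is the median of all tested genes and the grey band their middle 50%. In mCherry+ mantle cells the medians of the 52 genes (-0.65) and of other biogenesis factors (-0.49) lie left of the band, and that of ribosomal proteins (0.11) lies within it.

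At 3 h and 5 h after copper some genes of the list were called in both directions. In mantle cells the shares called were near those of all tested genes. Each time was compared with the same untreated arrays of its population, so the comparisons share controls. At 1 h, 0 of the 52 genes were called in either population by limma, with 6 genes of non-fluorescent and 7 of mCherry+ mantle cells below 0.05 before adjustment. The share of all tested genes below 0.05 before adjustment was not counted. In mantle cells the mean of the 52 genes was 1.32 to 1.46 at 1 h and 1.07 to 1.28 before copper. Their median difference was 0.23, against 0.03 over all genes, with 14 of the 52 negative. Under quantile normalization it was 0.08, against -0.004 over all genes. This shift of the mean was not tested. Of all tested genes 4.98% were called in non-fluorescent cells (2.4% higher and 2.58% lower) and 1.18% in mantle cells at that time. On the deposited values, where the median of all genes moved from -0.03 to 0.17 and the split of all calls from 48.3% to 91.8% higher, 3 of the 52 were higher in non-fluorescent cells at 1 h, where 10.5% of all genes were.

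In non-fluorescent cells at 3 h, 7 of the 52 genes (13.5%) were lower and 2 (3.85%) higher. Of all tested genes 19.2% were called, 8.42% lower and 10.8% higher. At 5 h 8 (15.4%) were lower and 3 (5.77%) higher, where 4.73% and 6.94% of all genes were. At 11 h 1 was lower and 2 higher, where 1.19% and 2.01% were. In mCherry+ mantle cells 5 (9.62%) were higher and 3 (5.77%) lower at 3 h, where 7.49% and 7.02% of all genes were. At 5 h 3 (5.77%) were higher and 2 (3.85%) lower, where 5.9% and 6.27% were. At 11 h 1 was higher, where 3.45% of all genes were called, 2.3% higher and 1.15% lower. On the deposited values the split of all calls in non-fluorescent cells moved from 56.1% to 72.3% higher at 3 h, from 59.5% to 78.8% at 5 h and from 62.8% to 90.8% at 11 h, and in mantle cells at 11 h from 66.6% to 78.2%. Quantile normalization gave 46.1% for non-fluorescent cells at 11 h.

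Single arrays moved several of these counts. In non-fluorescent cells the count was 6 in place of 11 at 5 h without replicate 2 or replicate 3 of that time and 7 without replicate 1. At 11 h it was 1 in place of 3 without untreated replicate 5 or 11 h replicate 1, and 5 without 11 h replicate 4. In mantle cells it was 4 in place of 8 at 3 h without untreated replicate 5 and 5 without 3 h replicate 4. At 5 h it was 1 in place of 5 without 5 h replicate 4, and 3 without untreated replicate 1, 4 or 5 or 5 h replicate 3. At 11 h it was 4 in place of 1 without 11 h replicate 4.

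The arrays of 3 h and 5 h carry the mark of an earlier adjustment, in that the deviations of replicate 4 at 3 h and at 5 h from their group means were exact opposites (r = -1 over the tested genes) in each population. With a block term for the sets of arrays adjusted together, 0 of the 52 genes were called against untreated cells at 3 h or 5 h in either population. Of all tested genes 1.25% at 3 h and 0.327% at 5 h were then called in non-fluorescent cells and 0.275% and 0.026% in mantle cells, so the count of 0 says nothing about the 52 genes in particular. At 11 h utp18 was called in non-fluorescent cells (0.654% of all genes), and 0 of the 52 in mantle cells (0.0571%). The calls against untreated cells at 3 h and 5 h below are all lost under that block. In it, replicates 1 to 3 of both times form a set of their own in each population, and replicate 4 stays with the remaining arrays. Comparisons of these times with untreated cells, with 1 h arrays or between the populations then rest mainly on replicate 4 of these times, and so on few arrays.

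The small subunit gene wdr43 had levels of 2.62 to 3.54 (median 3.05) in untreated non-fluorescent cells and 2.38 to 3.91 (median 3.34) at 1 h. It had levels of 2.12, 1.89, 1.30 and 1.72 at 3 h, 2.54, 1.76, 1.89 and 2.19 at 5 h, and 3.10, 3.56, 3.35 and 3.56 at 11 h. All 8 arrays of 3 h and 5 h were below all untreated arrays, and the 11 h arrays were back in or just above their range. The difference was -1.30 (SE 0.23, adjusted p = 0.000108, limma) at 3 h and -0.97 (SE 0.23, adjusted p = 0.00426, limma) at 5 h, with adjusted p = 0.0855 and 0.357 under the block.

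The gene wdr43 was not called in mCherry+ mantle cells at any time. Its levels were 2.57, 2.37, 2.82, 2.45 and 1.94 before copper, 3.11, 3.16, 2.56 and 2.50 at 3 h, and 2.49, 2.66, 2.90 and 3.22 at 5 h. The groups overlapped, and the difference was 0.40 at 3 h and 0.39 at 5 h, neither of them called. The response of wdr43 differed between the populations by 1.70 at 3 h (SE 0.33, adjusted p = 0.000682, limma) and 1.35 at 5 h (SE 0.33, adjusted p = 0.0128, limma), and with the block the adjusted p was 0.0902 and 0.499.

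Other genes lower in non-fluorescent cells at 3 h were rrp8 (-1.42), polr1a (-1.12), nop9 (-1.04), nhp2 (-0.99), gnl3 (-0.97) and polr1d (-0.95), the last not under all 3 scalings. The value of nop9 rested on untreated replicate 2, at 2.57 where the other untreated arrays had at most 0.19, and without it was -0.59 (adjusted p = 0.0666, limma). The gene nol4lb was higher at 3 h (1.25). At 5 h nop9, rrp8, rrp9, wdr43, nhp2, nol6, pes and nop58 were lower, by values from -1.41 (nop9) to -0.52. The value of nop9 again includes untreated replicate 2. The genes rrp8, nol6, pes and nop58 did not pass under all 3 scalings. The gene nol4la was higher at 5 h (0.90), and at 0.52 and not called without 5 h replicate 2. At 11 h nol7 was lower (-1.16), and nol10 (0.96) and utp18 (1.17) were higher, of which nol10 was at 0.57 and not called without 11 h replicate 1. The processome gene utp23 went the other way. Its levels were 0.49 to 1.75 (median 1.08) in untreated non-fluorescent cells, 1.70, 2.88, 2.61 and 3.32 at 3 h, 2.21, 2.59, 3.28 and 1.85 at 5 h, and 3.00, 0.77, 0.88 and 0.59 at 11 h. At 3 h only the lowest array lay within the untreated range, at 5 h none did, and at 11 h all but 1 did. The differences of utp23 were 1.53 at 3 h and 1.38 at 5 h, both called without the block.

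The gene with the largest increase in mCherry+ mantle cells belonged to 60S assembly. Levels of nop16 were 1.36, 0.73, 1.24, 0.45 and 0.69 before copper, -0.31, 0.78, 1.62 and 0.74 at 1 h, 3.21, 3.52, 2.88 and 1.29 at 3 h, 2.18, 1.74, 2.37 and 4.11 at 5 h, and 1.02, 1.41, 0.67 and 0.43 at 11 h. Replicate 4 was the lowest array at 3 h and the highest at 5 h, and the 1 h and 11 h arrays overlapped the untreated ones. The difference was 1.83 (SE 0.47, adjusted p = 0.00665, limma) at 3 h and 1.71 (SE 0.47, adjusted p = 0.0135, limma) at 5 h, with adjusted p = 0.318 and 0.437 under the block.

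The gene nop53 had levels of 3.94, 4.07, 3.89, 3.40 and 3.11 in untreated mantle cells, 4.64, 4.92, 4.24 and 4.61 at 3 h, and 4.85, 4.53, 4.46 and 4.69 at 5 h. All arrays of both times lay above all untreated arrays. The difference was 0.92 at 3 h (SE 0.22, adjusted p = 0.00341, limma) and 0.95 at 5 h (SE 0.22, adjusted p = 0.00338, limma), with adjusted p = 0.276 and 0.345 under the block. The other genes higher in mantle cells at 3 h were utp25 (1.02), fbl (0.90) and nop10 (0.75), and at 5 h polr1h (0.68). Lower were nol11 (-0.81) and nol4lb (-0.95) at 3 h and nol12 (-0.84) at 5 h, the last at -0.51 and not called without 5 h replicate 3. At 11 h gnl3 was higher (0.96), and it and nop10 did not pass under all 3 scalings. At 3 h keratinocyte markers were also higher in mCherry+ mantle cells, 16 of 25, with mean levels of 2.39 to 3.56 against 0.91 to 1.85 before copper, and at 5 h 6 of 25 were. Of 12 support and mantle markers 3 were lower in the same 3 h arrays and 0 higher, and their mean level was 1.70 to 2.34 there against 2.28 to 2.68 before copper. Levels of alpl, the gene that names the mCherry transgene, were -0.11 to 1.01 against 1.62 to 2.39. In non-fluorescent cells at 3 h alpl had levels of 2.37 to 3.08, above all mantle arrays of that time. Its response differed between the populations by -2.51 (adjusted p = 0.000159, limma). Levels of TSPAN1 were -3.06 to -1.10 in mantle cells at 3 h against -0.33 to 2.23 before copper, with -2.55 to -2.44 in non-fluorescent cells at 3 h. The part of these markers in the changes of the 52 genes was not tested.

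The small subunit gene rrp36 moved in opposite directions. In mCherry+ mantle cells its levels were 1.68, 1.46, 1.67, 1.57 and 2.38 before copper, 1.40, 1.01, 0.55 and 0.83 at 3 h and 1.29, 0.99, 0.35 and 1.13 at 5 h, and no array of 3 h or 5 h reached the untreated range. In non-fluorescent cells its levels were 1.79 to 2.12 (median 1.88) before copper and 3.24, 2.57, 2.78 and 2.68 at 5 h, all above the untreated arrays. The differences were -0.81 at 3 h and -0.81 at 5 h in mantle cells and 0.92 at 5 h in non-fluorescent cells. The response differed between the populations by -1.73 at 5 h (SE 0.36, adjusted p = 0.00431, limma; with the block 0.42).

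The response to copper differed between mantle and non-fluorescent cells for 11 of the 52 genes at 3 h, where 12.6% of all tested genes did, for 5 at 5 h (4.7%) and for 1 at 1 h (1.46%). At 11 h limma called 0, where 0.498% of all genes were called and 0.317% were more negative in mantle cells. Before adjustment 15 of the 52 had a p under 0.05 in limma's test, a threshold at which all tested genes were not counted. With the block 0 were called at 1 h, 3 h and 5 h, where 0.379%, 0.171% and 0% of all tested genes were. On the deposited values the split of all calls moved from 46.4% to 33.3% higher at 3 h and from 40.3% to 22.7% at 5 h. Without mantle 5 h replicate 3 the count at 5 h was 8. Of the 11 genes at 3 h, 7 responded more positively in mantle cells (nop16, polr1a, rrp8, wdr43, nop53, gnl3 and nop10) and 4 more negatively (nol4lb, nol8, rrp36 and nol11), where 5.87% and 6.77% of all genes did. At 5 h 3 responded more positively and 2 more negatively, where 1.9% and 2.81% of all genes did.

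**Figure D5:**
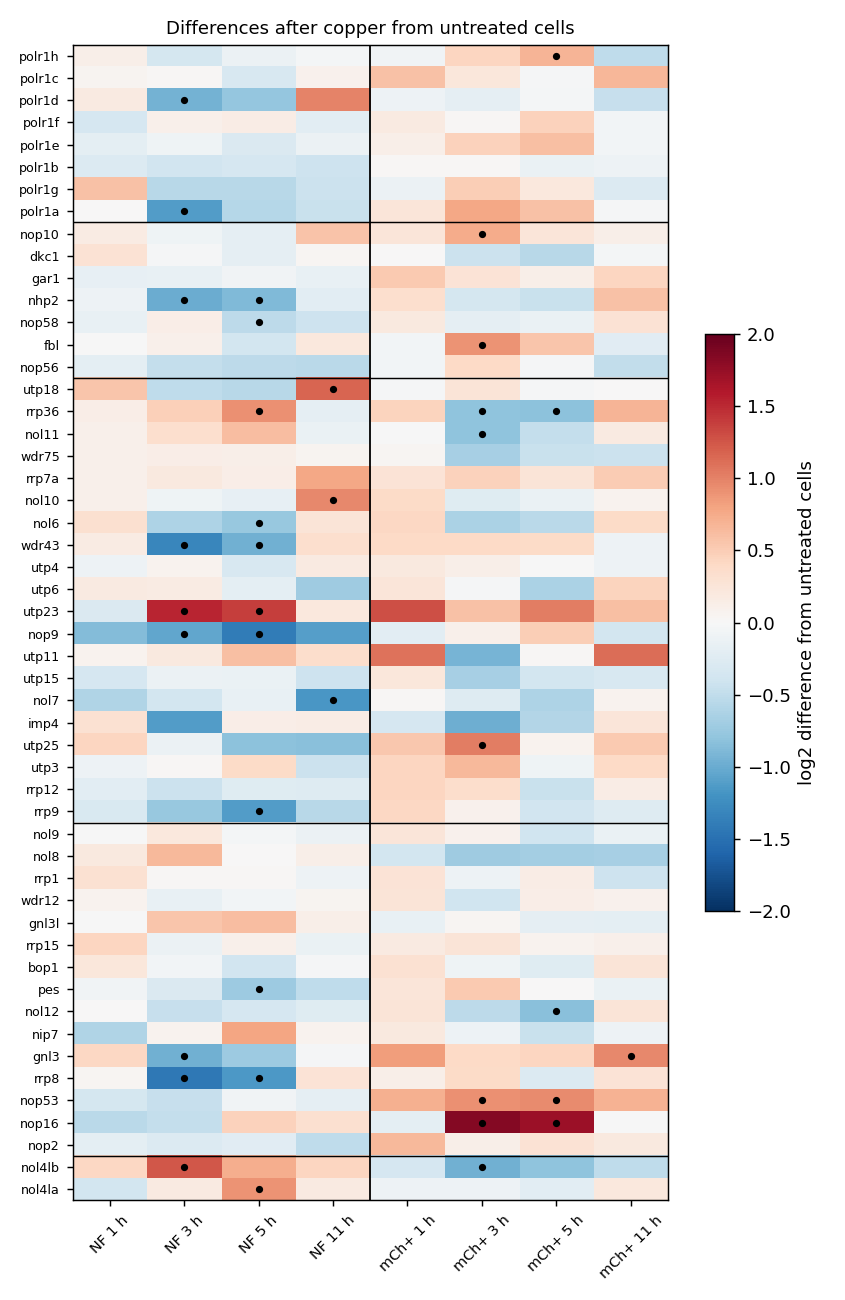
Log2 difference from untreated cells of the same population (colour scale, red higher and blue lower) for each of the 52 genes (rows, grouped by role) at 1, 3, 5 and 11 h after copper in non-fluorescent and mCherry+ mantle cells (columns). Dots mark an adjusted p under 0.05 without a block for sets of arrays. No column has a dot in more than 11 of its 52 rows, and the 1 h columns have 0.

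Comparisons with the 1 h arrays leave out the untreated arrays. In non-fluorescent cells 10 of the 52 genes were lower and 2 higher at 3 h than at 1 h, where 9.47% and 13% of all tested genes were, and 12 lower and 4 higher at 5 h, where 8.98% and 12.2% were. With the block, 3 of these were called at 3 h, namely wdr43 (-1.44), gnl3 (-1.36) and utp23 (1.84), and 0 at 5 h, where 3.34% and 2.61% of all genes were. At 11 h utp25 (-1.27) and utp6 (-0.89) were lower, where 0.8% of all genes were. Without 11 h replicate 1 that count was 1, and without replicate 4 it was 4. On the deposited values the split of all calls moved from 57.9% to 43.2% higher at 3 h, from 57.7% to 43.2% at 5 h and from 63.2% to 46.3% at 11 h. In mCherry+ mantle cells 6 were lower and 2 higher at 3 h, where 7.88% and 5.42% were, and the same counts were found at 5 h, where 7.82% and 5.16% were.

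At 11 h limma called 0 of the 52 against 1 h in mantle cells, where 0.171% of all genes were called. Before adjustment 3 of the 52 had a p under 0.05 in limma's test, and all tested genes were not counted at that threshold. The largest decrease at 3 h was that of utp11, a processome protein, with levels of 2.36, 2.44, 2.56 and 1.99 at 1 h and 1.34, 0.50, -0.08 and -0.49 at 3 h. The arrays of the 2 times did not overlap. The difference was -2.02 (SE 0.35, adjusted p = 0.000138, limma), and -1.98 with an adjusted p of 0.0304 under the block. That second estimate rests mainly on replicate 4 of 3 h and 5 h, which at 3 h was the lowest array (-0.49).

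The lower level in mantle cells was also found after copper for part of the genes, in a comparison added after the data were seen. At 1 h 13 of the 52 genes were lower in mCherry+ mantle than in non-fluorescent cells and 0 higher, where 11.8% of all tested genes were lower. At 3 h 16 were lower and 2 higher, where 12.2% were lower and 21.1% higher, and at 5 h 18 lower and 2 higher, where 13.8% and 21.8% were. At 11 h 17 were lower and 0 higher, where 11.7% were lower, and without mantle replicate 4 of that time 11 were. The gene dkc1 was lower at all 4 times (-0.88, -1.02, -0.98 and -0.69). Of the 8 RNA polymerase I subunits 0 were called lower at 3 h and at 5 h, with median differences of 0.06 and -0.07. At 1 h and 11 h 2 and 3 of these subunits were lower, and in untreated cells 5 (median -0.55). At 3 h and 5 h the block left 5 lower genes each, where 2.58% and 3.16% of all genes were lower. Under the block these comparisons rest mainly on replicate 4 of each population.

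On the deposited values, where mantle arrays lie lower as a whole after copper, the split of all calls moved from 70.5% to 36.5% higher at 1 h, from 63.4% to 36.8% at 3 h, from 61.2% to 34.2% at 5 h and from 61.1% to 36.4% at 11 h. On these values 32, 22, 26 and 23 of the 52 genes were lower at the 4 times, where 22%, 20.2%, 22.8% and 19.2% of all genes were. The higher genes were wdr43 (1.07) and utp18 (0.88) at 3 h and nop9 (1.06) and wdr43 (0.72) at 5 h, of which wdr43 at 3 h passed under all 3 scalings and the others did not. Mean levels of the 52 genes in mantle cells after copper were 1.36 ± 0.07 at 1 h, 1.21 ± 0.14 at 3 h, 1.11 ± 0.19 at 5 h and 1.23 ± 0.37 at 11 h (SD, n = 4 each). In non-fluorescent cells they were 1.78 ± 0.20 at 1 h (SD, n = 7), 1.60 ± 0.07 at 3 h, 1.63 ± 0.10 at 5 h and 1.73 ± 0.09 at 11 h (SD, n = 4 each).

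Over all 12 groups, the highest mean level of a gene was in a group of non-fluorescent cells for 46 of the 52 genes, with 13 highest at 1 h after copper and 12 in untreated cells. The lowest was in hair cells for 18 genes, in mantle cells at 3 h for 9 and at 5 h for 8. These counts were not made over all tested genes, so no share can be set beside them, and the hair cell means rest on 2 arrays. Within groups the genes varied together to different degrees. After group means were removed, the correlation of a gene with the mean of the other 51 over 52 arrays ranged from -0.08 for nol4la, -0.04 for utp23 and 0.02 for polr1d to 0.65 for nop58, 0.68 for rrp12, 0.70 for nop2 and 0.79 for polr1a. These values describe arrays that share their amplification and scaling, and they carry no test.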

How the data were processed

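The submitters deposited processed values of 52 arrays with 75212 probe sets. RMA and Partek 6.6 are named, with no order, per the submitters' processing notes. The deposited values were taken as log2 values. The log base is not stated there, and base 2 fits the naming of RMA and values of -1.29 to 15.05, with 0 missing. Which adjustment was made to the arrays of 3 h and 5 h is not given in the sources used here. The number of arrays limits the precision.

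Probe sets were named by the platform annotation, 20806 with 1 symbol, 855 with several and left out, and the probe set with the highest mean stood for a gene. All 52 member genes matched RefSeq by Entrez ID. Each array's median over the 19260 tested genes was subtracted. Linear models were fitted with limma 3.58.1 (lmFit, eBayes) in R 4.3.3, over the 17 untreated arrays and over the 42 non-fluorescent and mCherry+ arrays, with the Benjamini-Hochberg adjustment over all tested genes. Figures were drawn with matplotlib 3.10.9 and tables made with pandas 2.3.3. The members, their roles and the other gene lists were chosen with earlier results of these data known. Any member could be named, with up to 6 called increases and 6 decreases in each comparison, the largest among those whose groups did not overlap, and of other genes ncl, npm1a, ubtf, rrn3, pcna, the Myc genes and up to 4 called genes of a list. The fit was tested on simulated data of 19260 genes, where 66% of genes changed by 1 on the log2 scale and 98% changed by 2 were recovered in the comparison of mCherry+ and non-fluorescent cells, and 38% and 91% in that of hair cells and non-fluorescent cells. For the response difference at 3 h it was 37% and 81%. In the first comparison 6.82% of the calls were false. Each size was given to 100 genes, with independent noise and no sets of arrays, while 37% of genes were called in the real first comparison.

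Alternatives were the deposited values, quantile normalization, a block for replicate numbers, a block for sets of arrays adjusted together, averaging each gene's probe sets, dim genes left out, eBayes with trend and robust, all 52 arrays in 1 fit, and leaving out each array.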

Additional observations from a re-analysis of the deposited data

Results flagged for a closer look

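Of 66 groups of 4 to 10 arrays examined for mean levels of the 52 genes or of their roles, 5 held an array far from the others, and chance gives about 1 in 20. These were mCherry+ mantle 1 h replicate 3 for all 52 genes (mean log2 level 1.46), mCherry+ mantle 5 h replicate 1 for the nol4-like genes (-0.86), non-fluorescent 5 h replicate 2 for RNA polymerase I subunits (0.04), mCherry+/GFP+ replicate 4 for small nucleolar ribonucleoprotein genes (2.97), and mCherry+ mantle 5 h replicate 3 for small subunit genes (0.37).

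The response to copper, mantle minus non-fluorescent, differed between the populations by limma's test of the difference for these genes. At 1 h this was nop53 (1.06). At 3 h the values were 2.31 for nop16, 1.89 for polr1a, 1.80 for rrp8, 1.70 for wdr43, 1.39 for nop53, 1.36 for gnl3 and 0.84 for nop10, and -2.20 for nol4lb, -1.36 for nol8, -1.29 for rrp36 and -1.15 for nol11. At 5 h they were 1.89 for nop9, 1.35 for wdr43 and 1.02 for nop53, and -1.53 for nol4lb and -1.73 for rrp36. The value of nop9 includes untreated non-fluorescent replicate 2, at 2.57 where the other untreated non-fluorescent arrays had at most 0.19. With the block for sets of arrays adjusted together 0 of them were called. The values for nop53 at 1 h and 5 h and nop10 at 3 h did not pass under all 3 scalings.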

How the results depend on the processing

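Counts below are members called of 52. For mCherry+ mantle, mCherry+/GFP+ mantle and hair cells against untreated non-fluorescent cells, every alternative other than leaving out arrays gave 30 to 41, 16 to 31 and 26 to 40, against 35, 22 and 33. No result changed its direction among called values. With the block for sets of arrays adjusted together, the count was 0 for hair cells and for mCherry+/GFP+ cells against mCherry+ cells, 0 for non-fluorescent cells at 3 h and 5 h and 1 at 11 h, 0 for mantle cells at 3 h, 5 h and 11 h, 0 for the response difference at 1 h, 3 h and 5 h, 3 and 0 for non-fluorescent and 1 and 0 for mantle cells at 3 h and 5 h against 1 h, and 5 for mantle against non-fluorescent cells at 3 h and at 5 h. Replicate numbers were not taken to pair the samples, since r was over 0.1 in 6 of 21 pairs (-0.08 to 0.34) and not in every pair of any 2 groups, although it was in 4 of the 5 untreated pairs of non-fluorescent and mCherry+ cells. With them as a replicate block, counts were 35 for mCherry+ mantle cells, of which 34 were lower and nol4lb higher (0.64). They were 18 for mCherry+/GFP+ cells, of which 17 were lower and nol4lb higher (0.70). Of all tested genes 30.4% and 25.4% were called. Counts were 6 and 1 for non-fluorescent cells at 5 h and 11 h, where 9.72% and 2.32% of all genes were called. They were 5, 2 and 0 for mantle cells at 3 h, 5 h and 11 h (11.7%, 9.67% and 2.01% of all genes), and 1 for non-fluorescent cells at 11 h against 1 h (1.48%). All 52 arrays in 1 fit gave 1 for hair cells and 4 for mCherry+/GFP+ cells against mCherry+ cells. Quantile normalization gave 0 for mantle cells at 11 h, 0 for the response difference at 1 h and 24 for mantle against non-fluorescent cells at 1 h. Of all genes 3.21%, 0.997% and 32.5% were then called. Deposited values gave 3 and 5 for non-fluorescent cells at 1 h and 11 h, where 11.4% and 8.69% of all genes were called. They gave 3 for mantle cells at 11 h (4%), 0 for the response difference at 1 h (2.22%) and 32 for mantle against non-fluorescent cells at 1 h (34.7%). Mantle cells at 11 h gave 2 without dim genes and 0 with trend and robust. For these 2 settings and the single fit of all arrays, the shares of all genes were not counted. The cause of these changes was not tested.

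Leaving out 1 array gave 31 to 36 for mCherry+ mantle, 16 to 24 for mCherry+/GFP+ mantle and 16 to 36 for hair cells against non-fluorescent cells, and 1 to 4 for hair cells and 4 to 6 for mCherry+/GFP+ cells against mCherry+ cells. At 1, 3, 5 and 11 h it gave 0 to 1, 7 to 9, 6 to 9 and 1 to 5 for non-fluorescent cells, 0 to 0, 4 to 8, 1 to 5 and 0 to 4 for mantle cells, 0 to 1, 8 to 12, 3 to 8 and 0 to 2 for the response difference, and 9 to 16, 15 to 21, 16 to 21 and 11 to 20 for mantle against non-fluorescent cells. Against 1 h, at 3, 5 and 11 h, it gave 10 to 13, 11 to 15 and 1 to 4 for non-fluorescent cells and 5 to 8, 4 to 8 and 0 to 0 for mantle cells.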
